A study of Sus scrofa with 2 samples.

Results

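The porcine miRNA array carried 355 probes, and 100 of them had been added to the miRBase set under the prefix Y-. Of these, 53 had pig fat or muscle as their listed source. The 40 probes described here are the fat or muscle probes whose mature sequence holds under 80% A plus G, taken from the list of added probes, with Y-14 left out by name along with the 12 purine-rich ones. A source was listed for 99 of the 100 added probes. At the edge of the A plus G limit, Y-46 (78.3%) and Y-48 (79.2%) were inside, with 50.6 and 18.9 signal units in Bama minipigs against 28.1 and 5.70 in Landrace pigs. Just outside, Y-55 (80%) gave 181 and 167, and Y-31 and Y-50 (both 81.0%) gave 3571 and 1504, and 1.71 and 1.79, in the same order of breeds.

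Anterior pituitary RNA came from 20-day-old female piglets of 2 breeds, the Bama minipig (YB), a small and highly inbred Chinese breed, and the Landrace (YC), a large commercial breed. Each breed was 1 pool of 3 pigs on 1 array, with no treatment, so nothing here measures how pigs of a breed differ, and no test between the breeds could be made. Signals are Cy5 intensities on a linear scale after the background subtraction and LOWESS normalization of the authors. Over all probes they summed to 695596 in Bama minipigs and to 671754 in Landrace pigs. The deposited values hold no background level and no spread between spots, so a fixed limit of 100 signal units was used, and a signal under it is called low, not absent. Probes differ in how strongly they bind, so signals of separate probes do not rank the RNAs by abundance.

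A miRNA is a short RNA cut from one arm of a hairpin precursor, and it silences messenger RNAs that pair with its seed, the bases 2 to 8 from its 5′ end. Members of a miRNA family share the seed, and animal miRNAs often begin with U. The anterior pituitary secretes growth hormone and the other pituitary hormones, while fat and muscle are the tissues that set the body composition of a growing pig. Here probes for small RNAs listed from fat or muscle were hybridized with RNA of the gland.

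At 100 signal units or more, 7 of the 40 probes (17.5%) gave a signal on at least 1 array, and 4 did so on both. Over the whole array, 185 of the 355 probes (52.1%) reached 100 on at least 1 array and 169 on both. The share on at least 1 array was 59.2% for the 255 miRBase probes and 61.5% for the other 13 fat or muscle probes. It was 27.3% for the 11 added probes from pig pituitary and 42.9% for the 35 from other species. The sequences of the 7 members follow, 5′ to 3′ and with the seed in capitals, because every log2 ratio given for a member rests on them.
Y-16: uAGACUUUgagcgggcggaca
Y-13: gCCCACUGcccuggccgagc
Y-57: aGACCGGGgaccggagcgagcaga
Y-11: uCAGAGGAggagcagugacu
Y-28: uGGGUCACagaagagggucug
Y-34: uCUGGGACauggggcaggguug
Y-54: aGCGCGUGcggaacggguuucu

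Y-28 was the only 1 of the 40 with an ssc- name in the probe list, ssc-mir-2366. RefSeq (assembly Sscrofa11.1) names the gene MIR2366-1 and places it inside the span of MAP1A, which encodes a microtubule-associated protein of neurons, next to PPIP5K1. The other 39 had no such name. The precursor positions in the probe list carry no genome build, so no positions are given.

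Y-16 gave 2469 signal units in Bama minipigs against 1948 in Landrace pigs. It was the only member at 1000 or more. Its signal was 1.27-fold higher in Bama minipigs (log2 ratio 0.34). The remaining 6 probes over the limit lay between 102 and 245 on their brighter array.

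Y-13, the richest of the 40 in G plus C (80%), went the other way, with 150 in Bama minipigs against 245 in Landrace pigs, a signal 1.63-fold higher in Landrace pigs (log2 ratio -0.71). Y-57 gave 180 and 130 (log2 ratio 0.47), and Y-28 gave 137 and 104 (log2 ratio 0.40). These 4 were the members at 100 or more in both breeds, 3 of them higher in Bama minipigs.

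For the other 3, only the Bama minipig signal reached the limit. Y-11 gave 175 in Bama minipigs against 88.8 in Landrace pigs, at least 1.75-fold higher when the Landrace signal is set to 100. Y-34 gave 114 and 97.9, at least 1.14-fold higher. Y-54 gave 102 and 97.1, at least 1.02-fold higher. The measured log2 ratios were 0.97, 0.22 and 0.07, so that Y-11 lay just under the 2-fold limit and Y-54 was nearly even.

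By the 2-fold rule of size, 0 of the 7 members were higher and 0 lower in Bama minipigs. Among the 185 probes of the array with 100 or more on at least 1 array, 24 were 2-fold or more higher in Bama minipigs (13.0%) and 7 lower (3.78%), or 16.8% in either direction. With only 7 members, a count of 0 is not read as a departure from that background. Scaling the arrays to their 75th percentile shifted every log2 ratio by -0.19 and turned the array-wide split from 24 and 7 (77.4% higher) to 21 and 11 (65.6%), and still left 0 members past 2-fold in either direction. The median log2 ratio of the 7 was 0.34, against 0.03 for the 185, and after quantile normalization it was -0.06 against -0.07. Measured signals were higher in Bama minipigs for 6 of the 7 members and for 94 of the 185 probes. The 6 of 7 became 5 of 7 after median scaling, 75th percentile scaling or loess, where Y-54 changed sign, and 3 of 7 after quantile normalization, where Y-28 and Y-34 changed sign too.

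The remaining 13 fat or muscle probes, 12 of them at 80% A plus G or more and Y-14, are given beside them. Of the 13, 8 lay at 100 or more on at least 1 array, and 7 of these 8 were 2-fold or more higher in Bama minipigs, with a median log2 ratio of 1.26. With 1 array per breed, the difference between the 13 and the 40 was not tested.

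A member can be set against a second probe for nearly the same RNA in 1 case. Y-59, listed from other species, is Y-28 with 1 more base at the 3′ end.
Y-28: uGGGUCACagaagagggucug
Y-59: uGGGUCACagaagagggucugg
Y-59 gave 141 in Bama minipigs against 116 in Landrace pigs (log2 ratio 0.28), against 0.40 for Y-28, a difference of 0.11. The array held 4 such pairs with both probes over the limit, where 1 sequence contains the other, and their log2 ratios differed by 0.03 to 0.15. In 3 of these 4 pairs the signals were brighter than those of all members but Y-16. The only other such pair lay under the limit, with Y-47 at 68.3 and 27.0 and Y-14 at 68.7 and 15.8, and its log2 ratios differed by 0.78. Among the 7 members, the log2 ratio of Y-54 was smaller in size than 0.15, and only that of Y-11 was larger than 0.78. This compares probes of 1 array pair and says nothing of the spread between pigs.

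Below the limit, 7 members lay between 30 and 100 on their brighter array. Y-38 gave 56.1 in Bama minipigs against 29.95 in Landrace pigs, Y-45 gave 52.5 and 36.7, and Y-46 gave 50.6 and 28.1. Y-33 gave 50.6 and 6.61, the widest gap among the 33 members under the limit. Y-52 gave 34.3 and 14.1, Y-18 gave 32.1 and 26.6, and Y-9 gave 32.6 and 35.8. Of these 7, only Y-9 was lower in Bama minipigs. No ratio is given for them, because neither signal reached the limit.

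The other 26 members were under 30 on both arrays. The 5 between 10 and 30 were Y-37 (20.2 in Bama minipigs against 12.0 in Landrace pigs), Y-48 (18.9 and 5.70), Y-21 (18.7 and 12.1), Y-10 (14.4 and 11.1) and Y-25 (13.8 and 5.54), all higher in Bama minipigs. The last 21, or 52.5% of the 40, stayed under 10 on both arrays, from 9.14 and 6.49 for Y-36 down to 0.033 and 0.99 for Y-17. For comparison, 20.4% of the 255 miRBase probes and 23.7% of all 355 probes stayed under 10. A signal this close to 0 carries no order between the probes or the breeds.

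From 10 to 100, 11 of 12 members had the higher signal in Bama minipigs, as did 32 of the 52 miRBase probes and 56 of all 86 probes in that range. These signals lie under the limit, and the differences between these sets of probes were not tested. Under 10, 16 of the 21 members had the higher signal in Landrace pigs, as did 52 of all 84 probes in that range. The 21 members under 10 differed between the arrays by at most a few units, from -8.04 for Y-5 (0.59 in Bama minipigs against 8.63 in Landrace pigs) to 6.65 for Y-27 (8.50 and 1.84), Bama minipigs minus Landrace pigs, and no direction is read from them.

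The base composition is given by side of the limit. The 7 probes over the limit held 55.0% to 80% G plus C (median 63.6%), and the 33 below it 31.8% to 66.7% (median 52.4%). With a split at 50% G plus C, chosen after the values were seen, 0 of the 15 members at or below it reached 100, and 7 of the 25 above it did. Y-41 and Y-17, the poorest in G plus C of the 40, show the low end.
Y-41: aUGCUGUUugaacucuuuuuca
Y-17: uACUUAUGaagaaccuacgcaau
They held 31.8% and 34.8% G plus C and gave 0.033 and 0.033 in Bama minipigs against 1.48 and 0.99 in Landrace pigs. Signals this low carry no order between probes, and 10 of the 21 members under 10 held over 50% G plus C. Across the 40 members, G plus C and the brighter signal had a Spearman rank correlation of 0.57, against 0.03 across the 255 miRBase probes. A duplex in general binds more tightly the more G plus C it holds, and whether that bears on the counts at the split was not tested. Those counts describe the signals of the probes and not the amounts of RNA.

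In sequence, the 40 were 20 to 24 bases long, and 17 began with A, 12 with G, 9 with U and 2 with C. The share beginning with U was 22.5%, against 45.5% of the miRBase probes and 41.7% of all probes. It was 15.4% for the other 13 fat or muscle probes and 36.4% for the 11 pituitary probes. All 40 seeds were different. Of the 255 miRBase probes, 79 shared their seed with another miRBase probe. Only 1 member did, Y-53, whose seed CCUGGAG is also that of ssc-miR-4334-5p.
Y-53: uCCUGGAGgacgugcugugc
ssc-miR-4334-5p: cCCUGGAGugacgggggug
Y-53 gave 7.34 in Bama minipigs against 8.42 in Landrace pigs, while ssc-miR-4334-5p gave 1006 and 324 (log2 ratio 1.64). Apart from Y-28, the longest stretch a member shared with any other probe was 7 to 11 bases, with a median of 8. Y-16 shared 7 with ssc-miR-423-5p (1090 and 1396), and Y-11 shared the 10 bases agaggaggag with Y-56, a purine-rich fat or muscle probe at 6159 and 2656. Whether RNA read by those probes added to the members' signals was not tested.

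A precursor was listed for 29 of the 40 probes, 69 to 101 bases long, and for 5 of the 7 over the limit. Y-57 and Y-13 had none. The mature sequence lay in the listed precursor without a mismatch in 27. In the other 2, counted from 1 at the 5′ end of the mature sequence, the changes from mature to precursor were A1G and U20A for Y-49, and U18C and G19U for Y-29. Both gave under 4 signal units in each breed, with 1.27 and 3.90 for Y-49 and 2.11 and 3.70 for Y-29.

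Folded with RNAfold, 24 of the 29 precursors formed a single hairpin, and in 27 the mature sequence paired from 1 arm only, 15 times the 5′ arm and 12 times the 3′ arm. Y-34 had the most stable fold of the 29, with a free energy of -66.7 kcal/mol and 21 of its 22 bases paired. The opposite arm of its precursor is nearly its exact complement, which the pair below shows.
Y-34: uCUGGGACauggggcaggguug
Opposite arm of Y-34: aacccugccccaugucccaga
Y-28 folded at -37.6 kcal/mol with 18 of 21 bases paired, and Y-11 at -35.1 kcal/mol with 14 of 20.

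Y-16, the brightest member, had one of the weaker folds, at -20.3 kcal/mol with 15 of 21 bases paired on the 3′ arm. By this total free energy, not corrected for length, only 4 of the 29 precursors were less stable. Per 100 bases, Y-16 had -26.7 kcal/mol, and the median was -46.4 for the 5 precursors of members over the limit and -33.0 for the 24 under it. The 5 ran from -79.4 for Y-34 to -26.0 for Y-54, and the difference between the medians was not tested. The precursor of Y-54 formed 3 hairpin loops, and 4 of the 13 paired bases of its mature sequence paired within that sequence itself. Y-33, with the widest gap between breeds under the limit, had the least stable fold of the 29, at -18.1 kcal/mol.

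The list gave 2 members the same precursor as another added probe. Y-9 shared one with Y-89, listed as ssc-miR-370, and Y-7 shared one with Y-70, a pituitary probe. Neither Y-89 nor Y-70 lies in that precursor, with at most 5 bases in a row in common. Y-89 gave 605 and 724, Y-9 32.6 and 35.8, Y-70 10.2 and 3.93 and Y-7 1.19 and 8.21, in Bama minipigs and Landrace pigs. The signal of Y-89 is therefore no second reading of the precursor listed for Y-9.

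The tissue was looked at with a list of gland miRNAs and a list of striated muscle miRNAs, and no list of fat miRNAs was used. In the gland list, ssc-miR-7, enriched in endocrine cells, gave 35031 in Bama minipigs against 42831 in Landrace pigs, and Y-90 (miR-375, another endocrine miRNA) gave 34707 against 32765. The third of the list, ssc-miR-26a, gave 25545 and 25126. The list of 5 striated muscle miRNAs summed to 1527 in Bama minipigs against 655 in Landrace pigs. All 5 reached 100 in Bama minipigs and 2 did in Landrace pigs, with ssc-miR-1 at 426 and 25.1, ssc-miR-133b at 439 and 80.6, ssc-miR-133a-3p at 370.4 and 79.2, ssc-miR-206 at 117 and 278, and ssc-miR-499-5p at 175 and 192. Of the 5, 3 were higher in Bama minipigs. The probe list gives fat or muscle as the source of the members, so muscle RNA in the pools could bear on them. Its part in their signals was not tested. A bulk signal also cannot tell fewer cells of a type from less RNA per cell.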

How the data were processed

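The deposited values are signal intensities of custom μParaflo arrays, 1 array per breed, each from 1 pool of 3 pigs. The authors scanned the Cy5 stain, subtracted the background, and normalized with a LOWESS filter before they deposited the intensity of each probe on a linear scale. The probes covered miRBase 18.0 and 100 added sequences. All columns of the value table were used. How values below background stayed above 0 is not given in the sources used here.

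Sequences, sources and listed precursors came from the supplementary probe lists, of which no measured value was used. The members, lists and limits were chosen with earlier results of these data known. Log2 ratios, with Bama minipigs as the numerator, were taken from the deposited intensities with no further scaling. For the members, a log2 ratio was given where at least 1 signal reached 100, with a bound against 100 where only 1 did. Outside the members, the difference for Y-47 and Y-14 was taken from signals under 100. Members at 100 or more were described in full, those from 30 to 100 named with their signals, and the others given by range. Muscle and gland miRNAs served as tissue lists. Precursors were folded with ViennaRNA 2.7.2.

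Alternatives were median and 75th percentile scaling, quantile scaling and cyclic loess in limma 3.58.1 under R 4.3.3 (3 iterations), an offset of 50, and limits of 50 and 200. Each scaling was tested with the 2-fold rule on simulated data. The changes simulated there lay in probes brighter than all members but Y-16, so the test does not speak for signals near the limit. Python 3.11.15, numpy 2.4.6, pandas 2.3.3 and scipy 1.17.1 were used. The number of arrays limits the precision.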

Additional observations from a re-analysis of the deposited data

How the results depend on the processing

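With 1 array per breed, no library could be left out. No paired analysis was possible because each breed was 1 pooled sample. The counts of members rested on the signal limit. At a limit of 50, 11 of the 40 members reached it on at least 1 array and 7 on both, and at a limit of 200, 2 and 1 did, in place of 7 and 4 at 100. The limit of 50 also brought 1 member past 2-fold higher in Bama minipigs, Y-33, whose Landrace signal was itself under 50, so that its bound is only at least 1.01-fold. The scalings kept 7 members over the limit, gave 5 on both arrays, and left 0 members past 2-fold, as the offset of 50 did. The median log2 ratio of the members over the limit, 0.34, was 0.15 after 75th percentile scaling, -0.059 after quantile normalization and -0.18 at the limit of 200, where only Y-16 and Y-13 remained. The log2 ratio of Y-13 stayed below 0 in all 5 of the scalings and the offset, from -0.96 after quantile normalization to -0.56 with the offset, and those of Y-16, Y-57 and Y-11 stayed above 0. Differences of a few signal units among members under 100 are not detectable as differences between breeds in these values.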
